A study of Mus musculus with 12 samples.

Results

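The genes described here are 10 transcripts of mast cells, measured in RNA from peritoneal lavage cells of mice. They were taken by symbol from a list: the granule proteases Cma1, Tpsab1, Tpsb2, Cpa3 and Mcpt4, the histamine-forming enzyme Hdc, the receptors Kit, Fcer1a and Ms4a2, and the transcription factor Gata2. All 10 were present among the 12339 genes of the count table. The cells are labelled macrophages, and the question was what the mast cell transcripts in that material did across genotype and diet.

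The mice were wild type (WT) or of a line labelled meKO, which the series title ties to myeloid protein kinase C epsilon, encoded by Prkce. Every animal, controls included, received the vector AAV8PCSK9 at 8 weeks of age, a treatment meant to deplete the LDL receptor from liver cells. The animals then ate chow or a high-fat, Western-type diet (HFD), and 4 weeks later thioglycolate was used to recruit cells to the peritoneal cavity, which was then lavaged. This gave 4 groups of 3 libraries, called WT chow, meKO chow, WT HFD and meKO HFD below. The labels speak of 8 WT and 8 meKO animals and name neither the recombinase, the strain nor the sex, so which cells of the meKO mice carry the deletion is not stated. Each library carries its own animal number, and p-values measure the spread between these libraries.

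Mast cells are tissue-resident cells of the blood lineage, plentiful in the connective tissue and the fluid of the rodent peritoneum. They store chymases, tryptases, carboxypeptidase A3 and histamine bound to heparin in large granules, and release them when antigen cross-links IgE on the high-affinity receptor. They depend on the receptor tyrosine kinase Kit and its ligand stem cell factor, and GATA2 is a transcription factor of their lineage.

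The sequences below show the 250 bases before and 50 bases after the RefSeq start site (GRCm38.p6), read 5′ to 3′ along the gene's own strand. Cma1, Cpa3 and Fcer1a are shown because their levels went together most closely over the libraries, Ms4a2 because its window held the most GATA words of the 8 members in the table of promoters, and Kit because it was the 1 member called in a contrast. Capitals mark words that GATA factors are known to recognise, searched on both strands as AGATAA or AGATAG and as TGATAA or TGATAG.
Cma1, minus strand, chr14:55944626-55944925: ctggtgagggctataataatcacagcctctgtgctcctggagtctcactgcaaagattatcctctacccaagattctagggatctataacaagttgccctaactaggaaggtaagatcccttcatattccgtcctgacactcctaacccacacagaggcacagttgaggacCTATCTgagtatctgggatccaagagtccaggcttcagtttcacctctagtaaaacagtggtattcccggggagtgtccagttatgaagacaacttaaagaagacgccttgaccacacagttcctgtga
Cpa3, minus strand, chr3:20242132-20242431: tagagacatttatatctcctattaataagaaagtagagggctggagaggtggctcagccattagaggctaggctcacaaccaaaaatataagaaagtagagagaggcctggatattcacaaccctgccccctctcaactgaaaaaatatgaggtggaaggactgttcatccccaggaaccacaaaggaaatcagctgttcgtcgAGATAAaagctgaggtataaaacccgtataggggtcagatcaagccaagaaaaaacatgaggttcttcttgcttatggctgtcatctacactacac
Fcer1a, minus strand, chr1:173227180-173227479: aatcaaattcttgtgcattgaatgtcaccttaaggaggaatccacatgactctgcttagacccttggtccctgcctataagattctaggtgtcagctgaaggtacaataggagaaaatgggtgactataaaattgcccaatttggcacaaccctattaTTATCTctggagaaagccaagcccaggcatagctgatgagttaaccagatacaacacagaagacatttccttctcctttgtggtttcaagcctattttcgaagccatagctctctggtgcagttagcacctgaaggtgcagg
Ms4a2, minus strand, chr19:11623670-11623969: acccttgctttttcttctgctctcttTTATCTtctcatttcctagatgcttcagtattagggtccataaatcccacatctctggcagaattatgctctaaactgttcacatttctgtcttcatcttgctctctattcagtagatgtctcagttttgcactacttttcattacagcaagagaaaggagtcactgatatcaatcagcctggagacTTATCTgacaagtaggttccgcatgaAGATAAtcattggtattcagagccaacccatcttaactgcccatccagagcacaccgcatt
Kit, plus strand, chr5:75574737-75575036: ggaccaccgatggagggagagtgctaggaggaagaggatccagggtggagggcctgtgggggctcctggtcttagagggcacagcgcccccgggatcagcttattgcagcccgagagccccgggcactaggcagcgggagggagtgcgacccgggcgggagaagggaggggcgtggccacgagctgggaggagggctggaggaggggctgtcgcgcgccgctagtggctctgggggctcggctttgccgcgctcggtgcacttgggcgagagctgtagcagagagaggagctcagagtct
A word was found in 6 of the 8 members (Cma1, Cpa3, Mcpt4, Ms4a2, Fcer1a and Hdc), and in neither Kit nor Gata2. In Cma1 it began 79 bases before the start, in Cpa3 46 bases, in Fcer1a 92 bases, in Mcpt4 103 bases and in Hdc 221 bases. Ms4a2 held 3, at 224, 37 and 11 bases before the start. Of 32851 promoter windows of the same length, 29.8% held such a word, as did 18.9% of the 11947 windows of genes in the count table. The E-box words CACGTG and CATGTG, which MITF is known to bind, were found in 1 of the 8, Fcer1a, against 20.4% of all windows. These matches describe letters in a window and are not binding sites.

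The tryptases Tpsab1 and Tpsb2 lie 23.1 kb apart on chromosome 17, on opposite strands, and their reads could in principle be shared. The last 90 coding bases of each (GENCODE M21, GRCm38) are printed to show how far they can be told apart, with the 11 bases that differ in capitals.
Tpsab1, minus strand: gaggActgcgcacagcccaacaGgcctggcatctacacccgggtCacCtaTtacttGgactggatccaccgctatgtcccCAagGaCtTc
Tpsb2, plus strand: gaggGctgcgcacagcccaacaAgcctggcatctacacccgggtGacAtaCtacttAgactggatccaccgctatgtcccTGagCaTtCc
Over their coding sequences 620 of 828 aligned bases (74.9%) were identical. The longest identical run was 39 bases, and 0 of the 881 windows of 50 coding bases in Tpsab1 occurred unchanged in Tpsb2. The chymases Cma1 and Mcpt4 shared 66.7% of aligned coding bases, a longest run of 27 bases and 0 of 731 windows. Read length and the treatment of reads with several matches are not given in the sources used here.

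The libraries held 25844958 to 37282772 counts. Levels are given as CPM, counts of a gene per 1000000 counts of its library, scaled by edgeR's TMM factors. Macrophage genes were high in all 12 libraries, with Cd68 at 2540 to 3660 CPM and Adgre1 at 513 to 697 CPM. Prkce lay at 2.01 to 4.44 CPM in the 6 WT libraries and at 0.95 to 1.78 CPM in the 6 meKO libraries. Lyz2 was at 69.3 CPM in meKO chow replicate 2, against 16300 CPM or more elsewhere. Libraries also differed in how their genes deviated with transcript length: Spearman's rho across 11532 genes was 0.54 and 0.58 in WT chow replicates 1 and 2 and between -0.39 and 0.12 in the other 10.

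Mast cell transcripts made up a small share of the RNA, and in 11 of 12 libraries their sum lay between 205 and 383 CPM. The 10 genes summed to 234, 226 and 276 CPM in WT chow, 248, 233 and 248 CPM in WT HFD, and among the meKO libraries 383, 255 and 58.8 CPM on chow and 205, 297 and 226 CPM on HFD. The outlying library was meKO chow replicate 3, where they took 0.00592% of all counts, against 0.0206% to 0.038% elsewhere. Group means were 245 ± 27.2 CPM in WT chow, 243 ± 8.88 in WT HFD, 232 ± 163 in meKO chow and 243 ± 48.5 in meKO HFD (SD, n = 3). In bulk RNA, fewer mast cells and less of these transcripts per cell cannot be told apart.

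**Figure D1:**
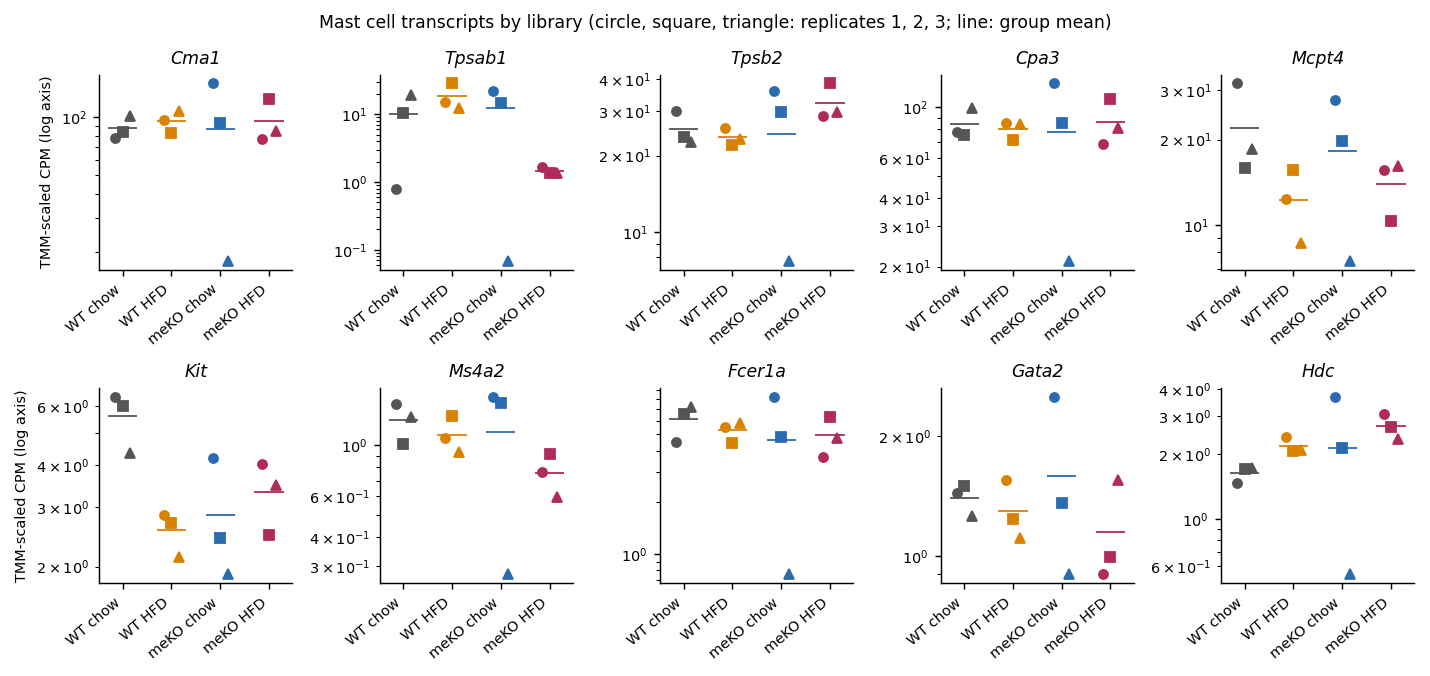
TMM-scaled CPM (log axis) of each of the 10 mast cell genes in the 12 libraries, grouped by genotype and diet, with marker shapes for the replicates and a line at each group mean. The blue triangle, meKO chow replicate 3, is the lowest point of every panel, and in Tpsab1 the 3 meKO HFD libraries also sit between 1.34 and 1.64 CPM.

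All 10 members were lowest in meKO chow replicate 3, with TMM scaling, with median-of-ratios factors and with library totals. Of all 12339 genes, 5.58% had their lowest level in that library. Of 20 further mast cell markers in the table, 12 were lowest there as well, among them the histamine and serotonin carrier Slc18a2 and the mast cell receptors Mrgprb1 and Mrgprb2. Relative to the mean of the other 11 libraries, Fcer1a stood at 13.5%, Cma1 at 18.3%, Hdc at 24.0%, Cpa3 and Ms4a2 at 24.2%, Tpsb2 at 27.4%, Mcpt4 at 42.8%, Kit at 50.9% and Gata2 at 64.1%. The members were unequally low there: apart from Tpsab1, given below, Fcer1a and Cma1 had the lowest percentages, and Kit and Gata2 the highest. Fcer1a, Hdc, Ms4a2 and Gata2 rested on 22, 16, 8 and 26 counts in that library, and the order of members with close percentages was not tested. The opposite end was held by meKO chow replicate 1, the highest library for 6 members with TMM scaling and for 5 with library totals, against 5.35% and 4.32% of all genes.

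Markers of other cells were both low and high in meKO chow replicate 3. The mesothelium and stroma list was low there: its sum of 60.4 CPM ranked 2 from the lowest, against a median of 114 CPM in the others, and 8 of its 16 genes were lowest in that library. Col1a1 and Col3a1, fibrillar collagens, stood at 24.0% and 29.5% of the mean of the others. Sparc, a matrix protein, stood at 26.7%, and Pdgfra, a receptor of fibroblasts, at 33.1%, close to many members. Of the 16 genes 12 were below that mean, and Lum (178%), Efemp1 (163%), Pdgfrb (125%) and Msln (118%) were above it. The sum of the list was lower still in WT chow replicate 3, at 59.8 CPM, where the members summed to 276 CPM. Of the 11 genes of resident large peritoneal macrophages, 8 were below the mean of the others and 1 was lowest, Gata6, their lineage factor, at 48.6%. Those above it were F5 at 173%, Alox15 at 152% and Fn1 at 112%. Of the 4 basophil genes that are no members, 2 were below that mean, Itga2b at 40.4% and Cd200r3 at 76.2%, and 2 above it, Prss34 at 109% and Il3ra at 119%.

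Other lists were high in the same library. All 4 eosinophil genes in the table, of 9 listed, were above the mean of the others, and their sum was the highest of the 12 libraries, 66.0 CPM against 21.6 to 51.7 CPM. Ccr3, the eotaxin receptor, stood there at 42.3 CPM, 265% of the mean of the others, and Il5ra, the interleukin-5 receptor, at 3.39 CPM, 224%. All 10 B cell genes were above that mean too, while the summed macrophage list, 29300 CPM, ranked 6 from the lowest. Lyz2 made up 21300 CPM of that sum, and it was lower in every meKO than in every WT library. Of the 10 macrophage genes, 3 were below the mean of the others, with a median of 105%. The part of any of these cells in the low mast cell levels was not tested.

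The proteases Cma1, Cpa3, Tpsb2 and Mcpt4 were the most abundant members. Per kilobase of exon, mean levels over 12 libraries were 84.1 CPM per kb for Cma1, 54.1 for Cpa3, 16.6 for Tpsb2, 15 for Mcpt4, 5.23 for Fcer1a, 5.03 for Tpsab1, 0.402 for Kit, 0.381 for Ms4a2, 0.338 for Hdc and 0.252 for Gata2. Neighbours in that order, such as Tpsb2 and Mcpt4 or Kit and Ms4a2, overlapped in their ranges of CPM over libraries once scaled by length, while Cma1 and Cpa3 each stood above Tpsb2 per kilobase in every library.

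Cma1 (Entrez gene 17228, chr14:55941451-55944675) encodes mast cell chymase. Its level was 78.1, 83.6 and 101 CPM in WT chow, 96.7, 83.4 and 108 CPM in WT HFD, and among the meKO libraries 150, 93.4 and 18.0 CPM on chow and 77.6, 124 and 85.4 CPM on HFD. The groups overlapped in every contrast. Without meKO chow replicate 3 the highest library was 1.94 times the lowest, a coefficient of variation of 22.6%. Fitted log2 fold changes lay between -0.01 and 0.13 in all simple contrasts, with SE 0.56.

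Cpa3 (Entrez gene 12873, chr3:20215616-20242209) encodes carboxypeptidase A3, stored with chymase in the granule. It measured 78.0, 75.6 and 98.9 CPM in WT chow, 85.0, 71.7 and 83.9 CPM in WT HFD, and among the meKO libraries 127, 85.3 and 21.2 CPM on chow and 68.9, 109 and 80.8 CPM on HFD. Its order over the libraries was close to that of Cma1: Pearson's r was 0.99 (permutation test, p = 1e-05, the smallest these 100000 permutations can give, adjusted p = 0.00045) and Spearman's rho 0.93 (permutation adjusted p = 0.0018). The ratio of Cpa3 to Cma1 CPM ran from 0.775 to 1.18, and the highest ratio was that of meKO chow replicate 3.

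Tpsb2 (Entrez gene 17229, chr17:25366308-25368096), the tryptase beta 2 gene, measured 30, 23.7 and 22.6 CPM in WT chow and 25.6, 22 and 23.2 CPM in WT HFD. In meKO chow it measured 35.8, 29.6 and 7.71 CPM, and in meKO HFD 28.6, 38.5 and 29.7 CPM. All 3 meKO HFD libraries lay above all 3 WT HFD libraries, but the difference did not pass (log2 fold change 0.45 ± 0.39, SE; edgeR adjusted p = 0.999).

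Mcpt4 (Entrez gene 17227, chr14:56059744-56062310), a chymase of connective tissue mast cells, measured 31.6, 15.9 and 18.6 CPM in WT chow and 12.3, 15.6 and 8.60 CPM in WT HFD. It measured 27.6, 19.8 and 7.47 CPM in meKO chow and 15.6, 10.3 and 16.2 CPM in meKO HFD. The WT diet groups did not overlap, with a gap of only 15.6 to 15.9 CPM, and the fitted log2 fold change on HFD was -0.86 ± 0.41 (SE; edgeR adjusted p = 0.141). Averaged over genotypes it was -0.62 ± 0.29 (edgeR adjusted p = 0.119). Without meKO chow replicate 3 both contrasts passed, with the same -0.86 in WT (edgeR adjusted p = 0.0489; 0.0489 to 0.48 across alternatives) and -0.81 averaged (edgeR adjusted p = 0.029; 0.029 to 0.286 across alternatives). As meKO chow replicate 3 is the chow library with the lowest Mcpt4, leaving it out moves the averaged difference downward by construction. Among the other 11 libraries Mcpt4 varied 3.67-fold, and Cma1, on the same chromosome, 1.94-fold. Per 100 CPM of Cma1 it ranged from 7.95 CPM in WT HFD replicate 3 to 41.5 CPM in meKO chow replicate 3, with 40.5 CPM in WT chow replicate 1.

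Tpsab1 (Entrez gene 100503895, chr17:25343245-25345562), the tryptase alpha/beta 1 gene known to be inactive in some inbred mouse strains, had the widest range. It measured 0.792, 10.4 and 19.2 CPM in WT chow, 14.9, 28.3 and 12.2 CPM in WT HFD, and among the meKO libraries 21.9, 14.4 and 0.0691 CPM on chow and 1.64, 1.34 and 1.35 CPM on HFD. The level in meKO chow replicate 3 rested on 2 counts (95% Poisson interval 0.242 to 7.22 counts, counting error only), 0.602% of the mean of the other 11 libraries (0.0729% to 2.17%). Levels thus fell into separate ranges: 7 libraries lay between 10.4 and 28.3 CPM, and 5 at or under 1.64 CPM, namely WT chow replicate 1, meKO chow replicate 3 and all of meKO HFD.

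The ratio of the tryptases varied widely. Per 100 counts of Tpsb2 there were 2.64, 43.7 and 84.7 counts of Tpsab1 in WT chow, 58.2, 129 and 52.6 in WT HFD, 61.1, 48.6 and 0.897 for meKO chow, and 5.73, 3.47 and 4.55 for meKO HFD. In the 3 meKO HFD libraries, where Tpsb2 was 28.6 to 38.5 CPM, Tpsab1 was at 34 to 60 counts. The genotype difference on HFD was -3.66 ± 1.42 in log2 (SE; edgeR adjusted p = 0.999). Fitted on the 6 HFD libraries alone it was -3.67 and passed (edgeR adjusted p = 0.00126), the 1 of 20 alternatives under which it did (range 0.00126 to 1). The interaction of genotype and diet was -3.94 ± 1.85 (edgeR adjusted p = 0.797).

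A look at which genes resembled Tpsab1 was added after its values had been seen. Of the 30 genes with the largest absolute correlation with Tpsab1 over the 12 libraries, 21 (70.0%) lie on chromosome 17, which holds 5.4% of the 11323 genes ranked. The same count was 0 of 30 for Tpsb2, 4 of 30 for Cma1 and 2 of 30 for Cpa3. None of the 30 was on the mast cell lists, against 5 for Tpsb2, 8 for Cma1 and 10 for Cpa3. Of the 62 genes within 1 Mb of Tpsab1, 2 were among the 30, Rnps1 and Clcn7.

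The genes of chromosome 17 are given side by side with Tpsab1 because its values fall into separate ranges and a pooled correlation would rest on them. H2-Eb1, a class II antigen-presenting gene 8960 kb away, measured 194, 8.88 and 11.4 CPM in WT chow, 6.80, 6.58 and 6.98 CPM in WT HFD, and among the meKO libraries 9.14, 130 and 388 CPM on chow and 125, 281 and 138 CPM on HFD. Its 6 high libraries included all 5 with low Tpsab1, and the additional one was meKO chow replicate 2, with Tpsab1 at 14.4 CPM. Clcn7, a lysosomal chloride transporter gene within 1 Mb of Tpsab1, was highest in WT chow replicate 1 at 223 CPM and meKO chow replicate 3 at 218 CPM, and lowest in WT chow replicate 3 at 80.6 CPM. Rps2, a ribosomal protein gene also within 1 Mb, was 246, 134 and 12.4 CPM in WT chow, 175, 11.7 and 196 CPM in WT HFD, and among the meKO libraries 11.9, 165 and 284 CPM on chow and 365, 433 and 357 CPM on HFD. The 3 libraries with Rps2 under 12.5 CPM were those with the highest Tpsab1, 19.2, 28.3 and 21.9 CPM. Prkce also lies on chromosome 17. The labels name no strain, and a difference in strain background between animals was not tested.

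**Figure D2:**
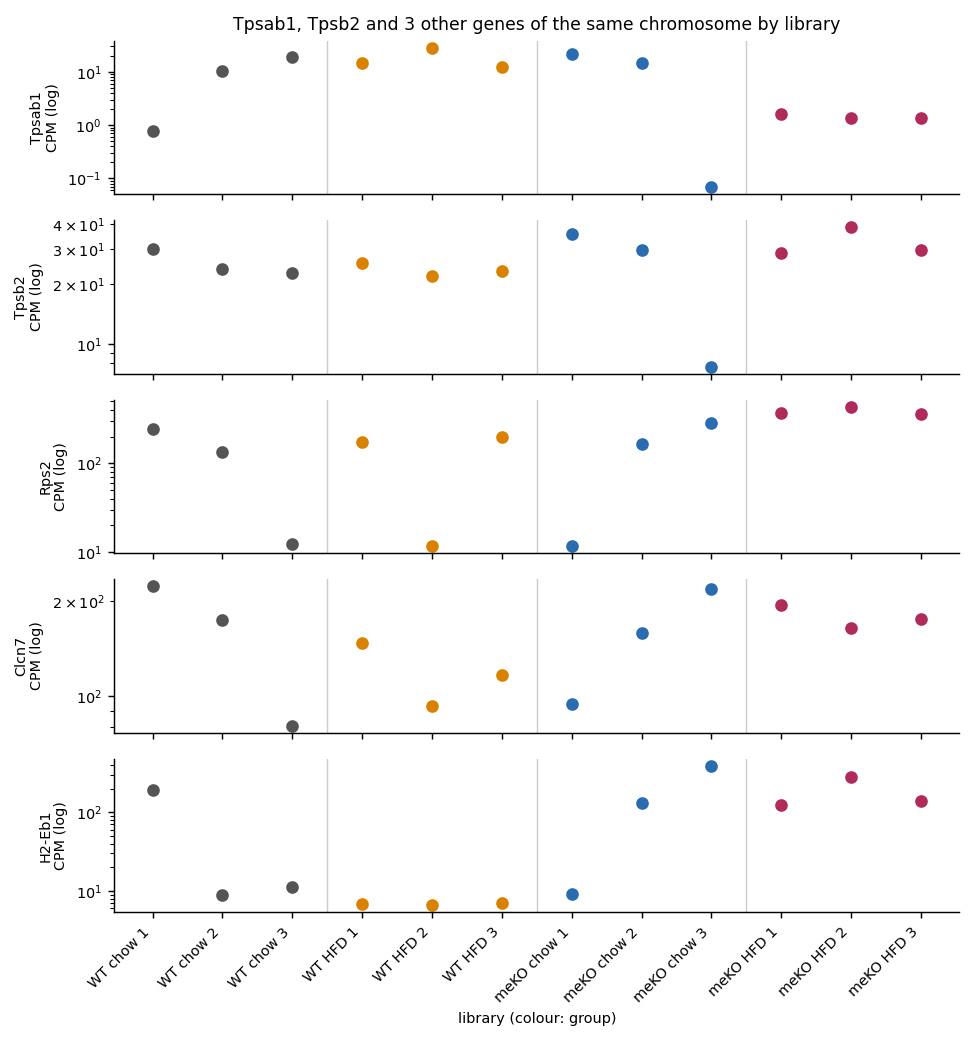
CPM (log axes) of Tpsab1, its neighbour Tpsb2 and 3 other genes of chromosome 17 in each of the 12 libraries, coloured by group. Tpsab1 drops to 1.64 CPM or less in 5 libraries, in 4 of which Tpsb2 stays at 28.6 CPM or more, while H2-Eb1 is at 125 CPM or more in the same 5.

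Hdc (Entrez gene 15186) encodes histidine decarboxylase, which makes histamine. It measured 1.47, 1.70 and 1.72 CPM in WT chow, 2.39, 2.07 and 2.08 CPM in WT HFD, and among the meKO libraries 3.70, 2.14 and 0.553 CPM on chow and 3.06, 2.67 and 2.34 CPM on HFD. All WT HFD libraries lay above all WT chow libraries, by 0.42 ± 0.43 in log2 (SE; edgeR adjusted p = 0.486), which did not pass.

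Kit (Entrez gene 16590, chr5:75574987-75656722) was the 1 member that changed in a contrast. It measured 6.39, 6.01 and 4.36 CPM in WT chow, 2.85, 2.69 and 2.14 CPM in WT HFD, and among the meKO libraries 4.19, 2.44 and 1.90 CPM on chow and 4.02, 2.48 and 3.49 CPM on HFD. All 3 WT chow libraries lay above the other 9, and the narrowest gap was that of WT chow replicate 3 over the 4.19 CPM of meKO chow replicate 1. Group means were 5.59 ± 1.08 CPM in WT chow, 2.56 ± 0.373 in WT HFD, 2.84 ± 1.20 in meKO chow and 3.33 ± 0.781 in meKO HFD (SD, n = 3). Kit was lower by 1.13 on the log2 scale in WT HFD than in WT chow (SE 0.28; edgeR adjusted p = 0.0209), a difference between separate animals.

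In meKO mice the diet difference of Kit was 0.23 ± 0.28 in log2 (SE; edgeR adjusted p = 0.706), and the difference between the genotypes' diet effects did not pass (1.36 ± 0.40, SE; edgeR adjusted p = 0.773). Between genotypes on chow Kit differed by -0.97 ± 0.28 in log2 with groups that did not overlap (edgeR adjusted p = 0.117). That contrast was called by DESeq2 (adjusted p = 0.0296), by voom with library quality weights (0.00258) and by edgeR without WT chow replicate 3 (0.0239), with a range over the alternatives of 0.00258 to 0.428. These settings called 591, 4078 and 2543 of all 12339 genes in that contrast, in the same order, against 10 in the main fit. With the trend on transcript length removed, Kit differed there by -0.73 (edgeR adjusted p = 0.225). The WT diet call was lost when WT chow replicate 1 (edgeR adjusted p = 0.103), WT chow replicate 2 (0.0767), WT HFD replicate 1 (0.0554) or WT HFD replicate 3 (0.1) was left out, and held under 17 of 21 alternatives.

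Kit has a long transcript, 8911 bases of exon, and its highest levels, 6.39 and 6.01 CPM, were in WT chow replicates 1 and 2, the libraries whose long transcripts read high. With the trend on length removed from each library, the WT diet difference of Kit was -0.86 (edgeR adjusted p = 0.0461; 0.000253 to 0.103 across alternatives). Summed lists of other cells also differed between those groups. B cell genes ran from 221 to 277 CPM in WT chow and from 126 to 153 CPM in WT HFD. Dendritic cell genes ran from 827 to 1170 and from 560 to 701 CPM. That dendritic sum rested mostly on H2-Aa and H2-Ab1, with means of 520 and 211 CPM. Of the 11 dendritic cell genes, 0 were called higher and 4 lower on HFD in WT, while Ccr7 and Fscn1 overlapped between those groups. Summed neutrophil genes (156 to 200 against 141 to 150 CPM) and basophil genes (48.8 to 49.8 against 33.4 to 42.1 CPM) were also lower on HFD without overlap. Single neutrophil genes went both ways in WT: S100a8 (0.76 in log2, edgeR adjusted p = 0.0396) and S100a9 (1.48, 0.0224) were higher. Csf3r (-0.60, 0.0171) and Retnlg (-0.96, 0.0395) were lower. Of the 7 basophil genes, 3 of them members, 1 was called, Il3ra, lower and with a mean of 32.7 CPM. In that contrast 21.3% of all genes were called. The mesothelium and stroma list lay the other way, at 59.8 to 106 CPM in WT chow and 113 to 164 CPM in WT HFD. The sum over resident macrophage genes was lower on HFD through Fn1, a fibronectin gene; without it the WT chow libraries held 188, 377 and 446 CPM and the WT HFD libraries 231, 277 and 342 CPM, which overlap. The part of these in the level of Kit was not tested.

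Fcer1a (Entrez gene 14125), the IgE-binding alpha chain of the high-affinity receptor, measured 4.47, 6.56 and 7.24 CPM in WT chow, 5.53, 4.44 and 5.84 CPM in WT HFD, and among the meKO libraries 8.27, 4.78 and 0.760 CPM on chow and 3.69, 6.33 and 4.72 CPM on HFD. It went with the proteases: r was 0.97 with Cma1 (permutation adjusted p = 0.003; rho 0.85, permutation adjusted p = 0.0158) and 0.97 with Cpa3 (permutation adjusted p = 0.00248; rho 0.81, permutation adjusted p = 0.035). Its largest fitted difference was -0.39 ± 0.53 in log2, between genotypes on chow.

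Ms4a2 (Entrez gene 14126), the beta chain of the same receptor, rested on 8 to 59 counts a library. It measured 1.5, 1.01 and 1.32 CPM in WT chow, 1.07, 1.34 and 0.932 CPM in WT HFD, and among the meKO libraries 1.62, 1.52 and 0.276 CPM on chow and 0.765, 0.915 and 0.596 CPM on HFD. The 3 meKO HFD libraries lay below the 3 WT HFD libraries by a narrow margin, 0.915 against 0.932 CPM, and the fitted difference was -0.55 ± 0.47 in log2 (SE; edgeR adjusted p = 0.999).

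Gata2 (Entrez gene 14461) measured 1.44, 1.5 and 1.26 CPM in WT chow, 1.55, 1.24 and 1.11 CPM in WT HFD, and among the meKO libraries 2.52, 1.36 and 0.899 CPM on chow and 0.902, 0.992 and 1.55 CPM on HFD. The groups overlapped in every contrast, and Gata2 was the member with the narrowest range, 2.80-fold over the 12 libraries.

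**Figure D3:**
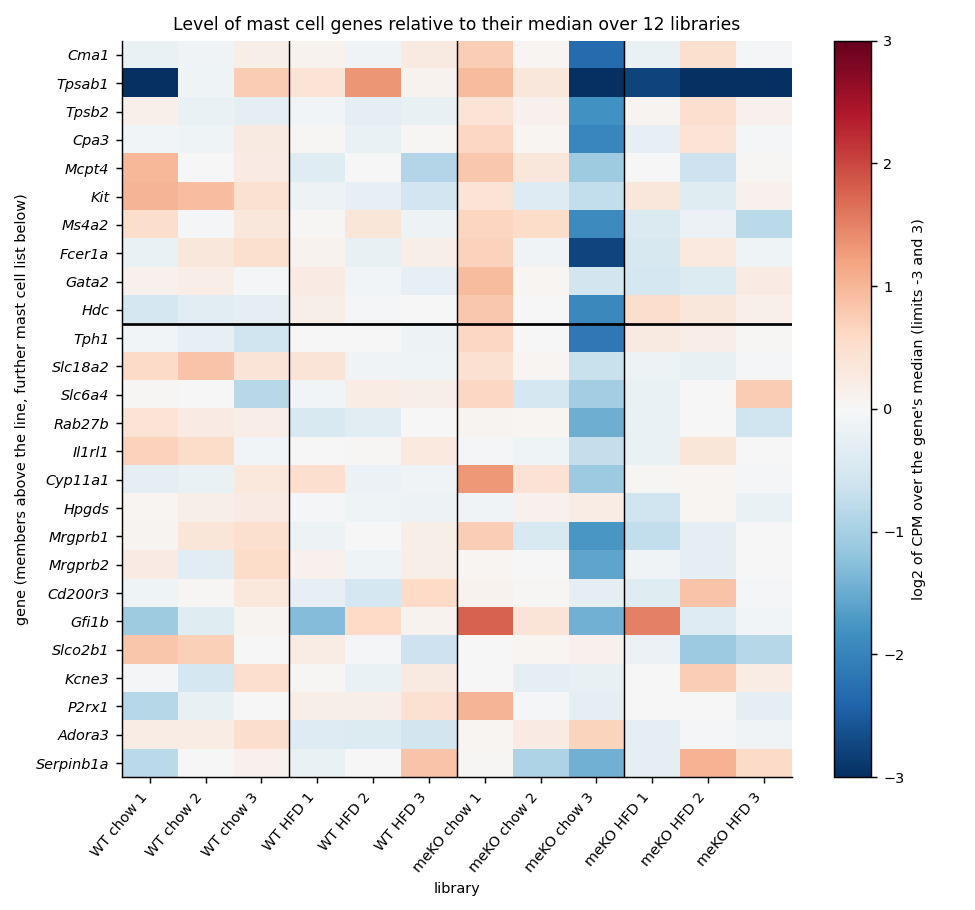
Log2 of each gene's CPM over its own median in the 12 libraries, with the 10 members above the black line and, below it, the further mast cell markers with a mean of at least 1 CPM, colours ending at -3 and 3. The column of meKO chow replicate 3 is blue for every member, and the row of Tpsab1 is also dark blue in WT chow replicate 1 and throughout meKO HFD.

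The members were called in 1 of the 7 contrasts. In the diet contrast in WT, 1 of 10 members was called, against 21.3% of all genes. In the other contrasts 0 of 10 were called by edgeR, where the share of all genes called was 0.081% between genotypes on chow, 0.081% between them on HFD, 0.105% between diets in meKO, 0.0162% for the interaction, 0.17% for genotype averaged over diets and 30.2% for diet averaged over genotypes. At an unadjusted edgeR p under 0.05 there was 1 member in each of the chow genotype, HFD genotype, interaction and averaged diet contrasts. Beside these stood 2447, 563, 756 and 5388 of all 12339 genes, in that order. There were 0 members in the remaining 2, diet in meKO and genotype averaged over diets, beside 1962 and 2182 genes. Of these 6 contrasts, DESeq2 called 1 member on chow between genotypes, each call here being Kit. Voom with library quality weights called 1 there, 1 for the interaction and 1 for the averaged diet contrast. Of all 12339 genes, DESeq2 called 591 on chow between genotypes. Voom with quality weights called 4078 there, 393 for the interaction and 6264 for averaged diet.

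Groups did not overlap for 1 member between genotypes on chow (Kit), against 17.1% of genes, and for 3 between genotypes on HFD (Tpsab1, Tpsb2 and Ms4a2), against 10.3%. They did not overlap for 3 members between diets in WT (Mcpt4, Kit and Hdc), against 39.3%, and for 0 between diets in meKO, against 19.7%. The median log2 fold change of the members was -0.09, 0.05, -0.11 and 0.10 in these 4 contrasts in that order, and that of all genes -0.00, 0.02, -0.03 and -0.01. The contrasts share groups with each other and are not independent.

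Mean CPM of 6 libraries was compared with that of 6, for each member and both factors; an exact permutation test, two-sided, gave no adjusted p under 0.751 over its 20 tests, where the smallest attainable raw p was 0.00216. The smallest raw p was 0.0952, for Mcpt4, which was 20.2 ± 8.58 CPM on chow and 13.1 ± 3.17 CPM on HFD (SD, n = 6; exact permutation test). Without meKO chow replicate 3 the diet differences were -9.60 CPM for Mcpt4 (exact permutation test, p = 0.00433) and -1.74 CPM for Kit (exact permutation test, p = 0.039), both unadjusted. With all 12 libraries the raw p for Kit was 0.152 (exact permutation test). The library left out is the chow library in which every member was lowest. Leaving it out raises the chow mean of each member, so these p-values cannot be read as a test of diet. A comparison of 3 libraries with 3 cannot give a permutation p under 0.1.

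**Figure D4:**
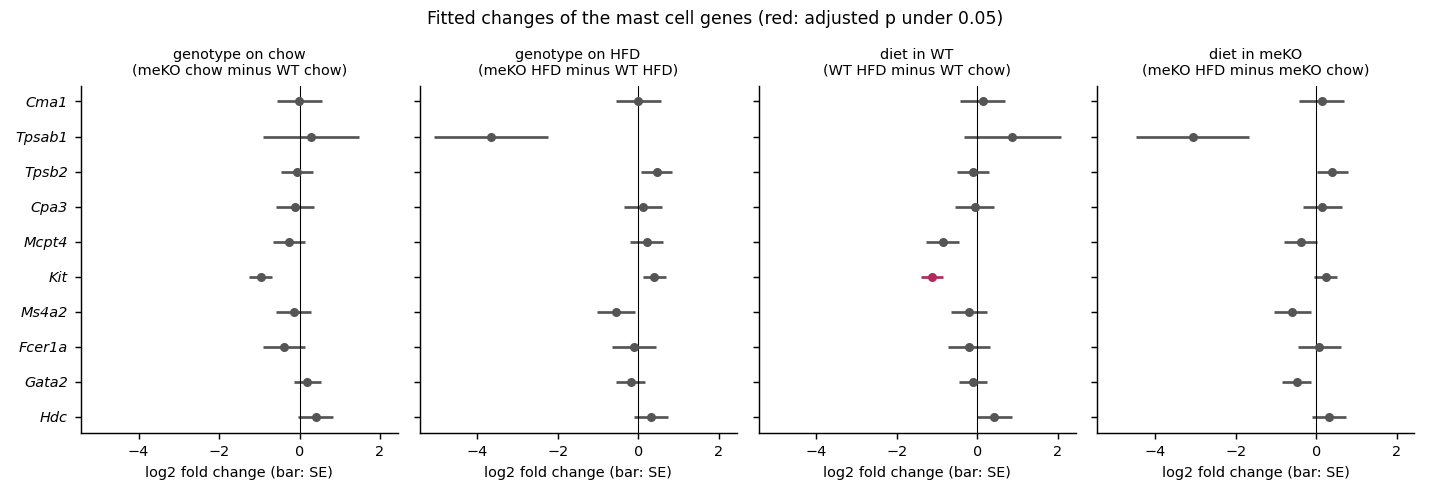
Fitted log2 fold changes of the 10 members (points) with their standard errors (bars) in the genotype contrast on each diet and the diet contrast in each genotype. Kit in the WT diet contrast, at -1.13, is the 1 point past the threshold, and Tpsab1 has the widest bars, with -3.66 and -3.07 in the contrasts that involve meKO HFD.

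The members moved together unevenly. Correlations were computed on log2(CPM + 0.5) over the 12 libraries and adjusted over all 45 pairs. With Tpsab1 set aside, whose values fell into separate ranges, 12 of 36 pairs had a permutation adjusted p for r under 0.05. Leaving out the 2 libraries farthest from the median of the first gene, meKO chow replicates 1 and 3, left r at 0.88 for Cma1 with Cpa3, 0.67 for Cma1 with Fcer1a and 0.71 for Cpa3 with Fcer1a. The same step took Cma1 with Tpsb2 from 0.91 (permutation adjusted p = 0.0297; rho 0.42, permutation adjusted p = 0.377) to 0.26, so that relation rested on those libraries. Around the group means r was 1 (rounded) for Cma1 with Cpa3 and 0.99 for Cma1 with Fcer1a. That measure keeps meKO chow replicates 1 and 3, and it gave 0.95 for Cma1 with Tpsb2 too. Without meKO chow replicate 3, r was 0.94 for Cma1 with Cpa3, 0.79 for Cma1 with Fcer1a and 0.49 for Cma1 with Tpsb2. Mcpt4 went with Kit, with r 0.75 (permutation adjusted p = 0.0297), rho 0.72 (permutation adjusted p = 0.123) and r 0.54 without WT chow replicate 1 and meKO chow replicate 3. It went about equally with Ms4a2, with r 0.74 (permutation adjusted p = 0.0297), rho 0.69 (permutation adjusted p = 0.141) and r 0.55 without the same libraries. Mcpt4 with Gata2 had r 0.66 (permutation adjusted p = 0.05), and again 0.66 without those libraries. Of the 36 pairs, 10 had r over 0.5 without meKO chow replicate 3.

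The genes most like the members were ranked among 11490 genes by Pearson's r over the 12 libraries with the mean of the members' standardised log2(CPM + 0.5). The 10 at the top were Mrgprb1 (r 0.88), Tph1 (0.87), Mrgprb2 (0.81), Cyp11a1 (0.81), Snx15 (0.80), Ube2e2 (0.80), Bcl2l1 (0.79), Rab27b (0.79), Nlrc3 (0.78) and Cchcr1 (0.77). Of these, 5 were on the further mast cell list: Mrgprb1 and Mrgprb2, receptors of the Mas-related family, Tph1, the serotonin-forming tryptophan hydroxylase, Cyp11a1, the side-chain cleavage enzyme of steroid synthesis, and Rab27b, a GTPase of granule secretion. Without meKO chow replicate 3, 2 of the 10 remained at the top, Cyp11a1 (0.87) and Snx15 (0.80), and r fell to 0.65 for Mrgprb1, 0.46 for Tph1 and 0.16 for Mrgprb2.

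Tph1 measured 5.35, 4.80 and 3.77 CPM in WT chow, 5.76, 5.61 and 5.14 CPM in WT HFD, and among the meKO libraries 8.79, 5.73 and 1.28 CPM on chow and 6.80, 6.48 and 5.84 CPM on HFD. As in Cma1, Cpa3 and Fcer1a, its highest and lowest libraries were meKO chow replicates 1 and 3. Mrgprb1 measured 5.52, 6.73 and 7.24 CPM in WT chow, 4.69, 5.30 and 5.87 CPM in WT HFD, and among the meKO libraries 8.76, 3.83 and 1.56 CPM on chow and 3.14, 4.35 and 5.16 CPM on HFD, with the same libraries at its ends.

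The further lists put these genes in their pathways. Of the 20 further mast cell markers, 0 were higher and 1 lower on HFD in WT (21.3% of all genes called), and 0 were higher and 3 lower averaged over genotypes (30.2%). The 3 were Adora3, an adenosine receptor (-0.63 ± 0.13 in log2, SE; edgeR adjusted p = 0.00728), Slco2b1, an organic anion transporter (-0.69 ± 0.18; 0.0155), and Hpgds, a prostaglandin D synthase (-0.29 ± 0.10; 0.0465). In meKO chow replicate 3 these 3 were not low: Hpgds was 120%, Slco2b1 107% and Adora3 160% of the mean of the others.

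Of 26 genes of IgE receptor signalling, all in the table, 3 were higher and 7 lower on HFD in WT, where 21.3% of all genes were called in either direction. Averaged over genotypes, 3 were higher and 9 lower, beside 30.2% of all genes. Fcer1g, the gamma chain that the IgE receptor shares with Fc receptors of macrophages, rose by 0.50 ± 0.16 in log2 in WT (SE; edgeR adjusted p = 0.0443). Plcg1, phospholipase C gamma 1, fell by 0.85 averaged over genotypes (SE 0.14; edgeR adjusted p = 0.00347), and Cblb, a ubiquitin ligase that restrains receptor signalling, fell by 1.05 in WT (SE 0.17; 0.0062). The kinases Lyn and Syk were not called, at -0.03 ± 0.10 and -0.35 ± 0.17 in WT (SE; edgeR adjusted p = 0.825 and 0.142). Most of these genes are known to be expressed in macrophages too, the main cells of the lavage.

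Of 14 genes of the Kit pathway, 0 were higher and 4 lower on HFD in WT, beside 21.3% of all genes called, and 0 higher and 6 lower averaged over genotypes, beside 30.2%, with medians of -0.37 and -0.29 in log2. Kitl, the ligand, was not called (-0.20 ± 0.31 in WT, SE; edgeR adjusted p = 0.66). The adaptors Shc1 (-0.59 ± 0.12 in WT, SE; edgeR adjusted p = 0.0122) and Grb2 (-0.46 ± 0.09; 0.0121) were lower, as was Mitf, a transcription factor needed by mast cells, averaged over genotypes (-0.32 ± 0.09; 0.0214). Shc1, Grb2 and Mitf averaged 41.1, 320 and 67.6 CPM, against 3.58 CPM for Kit. Which cells of the lavage account for their differences was not tested. Between diets in WT, 1740 genes were called with the length trend removed and 129 without WT chow replicate 1, against 2634 in the main fit.

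Of 5 genes of histamine handling in the table, 1 was higher and 1 lower on HFD in WT, and 0 higher and 1 lower averaged over genotypes. The lower one was Hrh1, the histamine H1 receptor, named after its values were seen since its mean was 0.955 CPM, at -2.12 ± 0.36 in WT (SE; edgeR adjusted p = 0.00754) and -1.40 ± 0.25 averaged (0.00483). Hnmt, the methyltransferase that inactivates histamine, rose by 0.40 ± 0.13 in WT (SE; edgeR adjusted p = 0.0488), and Slc18a2, which loads amines into granules, was not called (-0.55 ± 0.27; 0.14). Of 13 genes of granule proteoglycan and heparin synthesis, 2 were higher and 3 lower averaged over genotypes. Srgn, the serglycin core protein, rose by 0.65 ± 0.13 (SE; edgeR adjusted p = 0.00622), and Ndst1, a heparan sulfate sulfotransferase, fell by 0.68 (SE 0.15; 0.00827). Of 16 genes of granule maturation and exocytosis, 3 were higher and 5 lower averaged over genotypes, with Vamp8, a SNARE protein of granule fusion, at 0.52 ± 0.12 (SE; edgeR adjusted p = 0.00924). All these averaged counts stand beside 30.2% of genes called, and the WT count beside 21.3%. Which cells of the lavage account for these differences was not tested, and Srgn and Vamp8 averaged 765 and 262 CPM. None of the genes of these 6 lists was called by edgeR in a genotype contrast or the interaction.

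Of 8 basophil genes, 7 were in the table and 3 of those are members (Fcer1a, Gata2 and Ms4a2). Prss34, which encodes a protease of basophils, measured 0.99, 0.49 and 0.264 CPM in WT chow and 0.259, 0.0344 and 0.602 CPM in WT HFD. In meKO chow it measured 0.246, 0.489 and 0.829 CPM, and in meKO HFD 1.15, 1.83 and 2.02 CPM. Every library with Tpsab1 at or under 1.64 CPM lay above all the others in Prss34, whose mean was only 0.767 CPM. Any link of Prss34 with Tpsab1 was not tested. Itga2b ran from 0.276 to 1.27 CPM. Il3ra, the interleukin-3 receptor, fell by 0.43 averaged over genotypes (SE 0.09; edgeR adjusted p = 0.00766).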

How the data were processed

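The authors deposited 1 table of whole-number counts per gene for 12 libraries. RNA was extracted with Trizol and made into TruSeq libraries, per the labels' protocols. The submitters' processing notes name mm10 and DESeq2. The aligner, the counter, strandedness and read length are not given in the sources used here. Groups came from the titles. The members and the further gene lists were chosen with earlier results of these data known.

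Counts were fitted with edgeR 4.0.16 (R 4.3.3; TMM, filterByExpr, which kept all 12339 genes, quasi-likelihood test, 4 group means over all 12 libraries, Benjamini-Hochberg over all genes), called at adjusted p under 0.05, and tested on simulated data. Every member is named; from the further lists, up to 4 called genes a list with a mean of at least 1 CPM, by smallest p, and fixed pathway genes. Alternatives used other scaling, low-count filters, DESeq2 1.42.0, limma 3.58.1 (voom), the groups of a contrast alone, a correction for transcript length, and leaving out each library. Likeness used log2(CPM + 0.5). Exon lengths came from GENCODE M21, and positions and promoters from RefSeq (GRCm38.p6), in which 8 of 10 members had a promoter. A result on 1 item withheld for evaluation is not reported here.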

Additional observations from a re-analysis of the deposited data

Results flagged for a closer look

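In 2 of 40 sets of 6 libraries tested, 1 library stood far from the rest, where chance gives about 1 set in 20. Tpsb2 was 7.71 CPM in meKO chow replicate 3, the lowest of the 6 meKO libraries, with the next at 28.6 CPM and the highest at 38.5 CPM. Gata2 was 2.52 CPM in meKO chow replicate 1, the highest of the 6 chow libraries, with the next at 1.5 CPM and the lowest at 0.899 CPM.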

How the results depend on the processing

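Among the counts of members called, the following differed from those reported. Between genotypes on chow, 1 member was called with DESeq2 (591 of all 12339 genes) and 1 with voom with library quality weights (4078 genes). There, 0 to 1 were called when a library was left out (2 to 2543 genes). Between genotypes on HFD, 1 was called with the groups of the contrast alone (34 genes). Between diets in WT, 0 to 2 were called when a library was left out (96 to 4921 genes). For the interaction 1 was called with voom with quality weights (393 genes). For the averaged diet contrast 1 was called with voom with quality weights (6264 genes), and 0 to 1 with a library left out (1957 to 5326 genes). Of 70 member contrasts, 23 had a difference beyond its SE. Tpsb2 between diets in meKO turned from 0.40 to -0.02 without meKO chow replicate 3 (range 0.77 to -0.02 with 1 library left out). Tpsab1 in the averaged diet contrast turned from -1.10 to 0.22 with limma-voom and 0.70 with voom with quality weights. The cause was not tested. Of the other values of members, 487 kept their direction and side of the threshold, 10 came to pass and 4 no longer passed.

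Over all genes, calls depended on the setting: 2634 genes were called between diets in WT, against 96 without WT HFD replicate 3 and 6384 with voom with quality weights. Over the alternatives the count ran from 2 to 4078 between genotypes on chow (10 reported), 3 to 144 on HFD (10), 1 to 522 between diets in meKO (13), 1 to 393 for the interaction (2), 8 to 3843 for averaged genotype (21) and 1957 to 6264 for averaged diet (3721).

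No paired analysis was possible because each library carries its own animal number and the groups share none. Hdc, Ms4a2, Gata2 and Kit rested on 8 to 226 counts a library, which limits their precision.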
